A study of Mus musculus with 2 samples.

Results

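Chaperones of the large heat shock families were described here in the mouse heart: the Hsp90, Hsp70 and Hsp110 proteins, the chaperonins of the mitochondrion and the cytosol, the DNAJ (Hsp40) co-chaperones and the heat shock factors. Genes were taken by symbol (Hspa, Hsp90, Hsph1, Hspd1, Hspe1, Dnaja, Dnajb, Dnajc, Cct, Tcp1 and Hsf with a number) where at least 1 transcript was typed protein-coding. This gave 79 genes of 55450. The series holds 1 group of 2 biological replicates, called hearts below: total RNA of hearts of male B6CASTF1/J mice aged 36 days, first-generation hybrids of B6 and CAST, with no treatment named. Each library was made from 300 ng of RNA after reduction of ribosomal RNA, with ERCC spike-ins, which are synthetic RNAs of known sequence. The hearts are separate biosamples with the same donor entry, so the spread between them may be technical. No groups were compared, and with 2 hearts no test can pass a threshold, since an exact sign permutation cannot go below p = 0.5.

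The symbol pattern also met 16 entries without a protein-coding transcript. Of these, 15 are pseudogenes by name, and the other is Cct6a, the zeta subunit of the cytosolic chaperonin, which the annotation used for the files types as a processed transcript. Cct6a stood at 35.5 and 34.0 TPM in hearts 1 and 2 and is outside all counts below. TPM is a level per transcript length, scaled to the same total in each library, and was used wherever genes are set side by side.

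Hsp70 proteins bind exposed stretches of unfolded chains and release them on exchange of ADP for ATP. DNAJ proteins carry a J domain that brings clients to Hsp70 and starts ATP hydrolysis, and Hsp110 proteins and BAG proteins speed nucleotide exchange. Hsp90 acts later on kinases, hormone receptors and, with Unc45b and Smyd1, on muscle myosin. Chaperonins are barrels that enclose a chain: Hsp60 with its lid Hsp10 in mitochondria, and TRiC, built of the Cct subunits, in the cytosol, where actin and tubulin fold. Heat shock factors bind heat shock elements, inverted repeats of nGAAn, and drive the inducible members under stress, while BiP and its partners answer to stress of the endoplasmic reticulum.

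Expected counts summed to 41846508 in heart 1 and 42481559 in heart 2, and where a gene had 0 counts the limit is 3 counts, which scaled to the library total is 0.0717 CPM in heart 1 and 0.0706 CPM in heart 2. All 7 cardiomyocyte markers were abundant, the lowest at a mean of 362 TPM, with log2 ratios between the hearts of 0.04 to 0.13. Some other lists differed more. All 6 measured erythroid markers were 2-fold or more higher in heart 1, with a summed level of 20329 and 9336 TPM in hearts 1 and 2. Of 6 measured adipocyte markers 5 were 2-fold or more higher in heart 1, and that list summed to 457 and 357 TPM, with no marker of either list at 0 in either heart. Most of the adipocyte sum was Fabp4, the marker that was not 2-fold apart, at 382 and 349 TPM. The 5 others differed far more than the sum, with Ucp1 at 1635 and 46 counts and Cfd, the least apart, at 397 and 117. Of 17 measured immediate early genes, which stimuli of many kinds induce quickly, 6 were 2-fold or more higher in heart 1 and the list summed to 218 and 154 TPM. Fibroblast markers summed to 433 and 373 TPM, with 0 of 5 2-fold apart. In bulk tissue, fewer cells of a type and less RNA per cell cannot be told apart.

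Reference sequences around the starts of these genes show which members carry the elements named above in the reference genome. The CAST alleles of these hybrid animals were not read, here or for the coding sequences below. RefSeq promoter windows on GRCm38.p6 (mm10), from 250 bases before to 50 bases after the start, were found for 63 of the 79 genes, as 81 windows. The other members, Hspa8, Hspa9, Hsp90aa1, Hsp90ab1 and Hsf1 among them, had no window and were not searched. A heat shock element was searched as 3 alternating units, GAANNTTCNNGAA on 1 strand or TTCNNGAANNTTC on the other, with overlapping matches kept. It was found in 198 of 32851 windows in the table (0.603%), and among members in those of Hspd1, Hspe1, Hsph1 and Dnajb6. Hspd1 and Hspe1 encode Hsp60 and its lid and lie head to head, and their windows overlap, so that 1 stretch of 4 units serves as the match in both. Only 8 windows in the table hold 4 units, these 2 included. The stretches are printed 5′ to 3′ on the gene's strand, with the element in capitals. The Hspe1 stretch is at chr1:55088053-55088082 on the plus strand, from position -95 to -66 with the start as 0. The Dnajb6 stretch is at chr5:29735843-29735872 (plus strand). The Hsph1 stretch is at chr5:149636287-149636309 (minus strand) and lies after the start, at positions 27 to 49 of its second listed start.
Hspe1: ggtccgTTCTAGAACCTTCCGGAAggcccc
Dnajb6: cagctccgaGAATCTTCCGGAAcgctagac
Hsph1: tgctgcagaTTCTGGAAAGTTCt

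With 1 mismatch allowed at a fixed base, the element was found in 7.22% of all windows and in those of 14 of 63 members. The 14 include Hspa1a and Hspa1b, the stress-inducible Hsp70 genes, and Dnaja1, their co-chaperone, which are shown because these 3 differed most between the hearts together with Dnajb1. No such letters were found in the windows of Dnajb1 and Hspa1l. The windows of Hspa1a and Hspa1b differ at 4 of 300 bases, and the 100 bases printed are the same letters in both. They lie at chr17:34972207-34972306 for Hspa1a and chr17:34959289-34959388 for Hspa1b, both on the minus strand, and the Dnaja1 stretch is at chr4:40722330-40722359 on the plus strand.
Hspa1a: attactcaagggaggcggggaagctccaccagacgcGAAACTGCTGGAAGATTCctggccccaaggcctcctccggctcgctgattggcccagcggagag
Hspa1b: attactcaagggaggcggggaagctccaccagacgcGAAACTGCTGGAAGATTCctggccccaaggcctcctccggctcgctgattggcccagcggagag
Dnaja1: aaaaaaagcCTCTAGAAAATTCtacgaggc

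The element of ER stress, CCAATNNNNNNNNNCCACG on either strand, was searched after the levels had been seen. It was found in 39 of 32851 windows (0.119%), and among members in those of Hspa5 (BiP), Hsp90b1 (GRP94) and Dnajc3 (p58IPK), all proteins of the endoplasmic reticulum. Hsp90b1 holds it 2 times, 1 on each strand. The stretches are at chr2:34772019-34772048 (plus), chr10:86705510-86705674 (minus) and chr14:118937812-118937901 (plus). In the list of ER stress genes, 7 of the 15 with a window hold it, the others being Calr, Canx, Creld2 and Pdia6. A match of letters describes the window and is no sign of binding.
Hspa5: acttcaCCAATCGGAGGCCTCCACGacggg
Hsp90b1: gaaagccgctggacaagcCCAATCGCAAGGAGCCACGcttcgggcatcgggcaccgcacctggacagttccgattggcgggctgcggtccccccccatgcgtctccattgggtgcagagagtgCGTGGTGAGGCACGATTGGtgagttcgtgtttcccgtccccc
Dnajc3: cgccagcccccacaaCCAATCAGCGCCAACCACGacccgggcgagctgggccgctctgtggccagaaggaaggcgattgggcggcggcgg

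**Figure D1:**
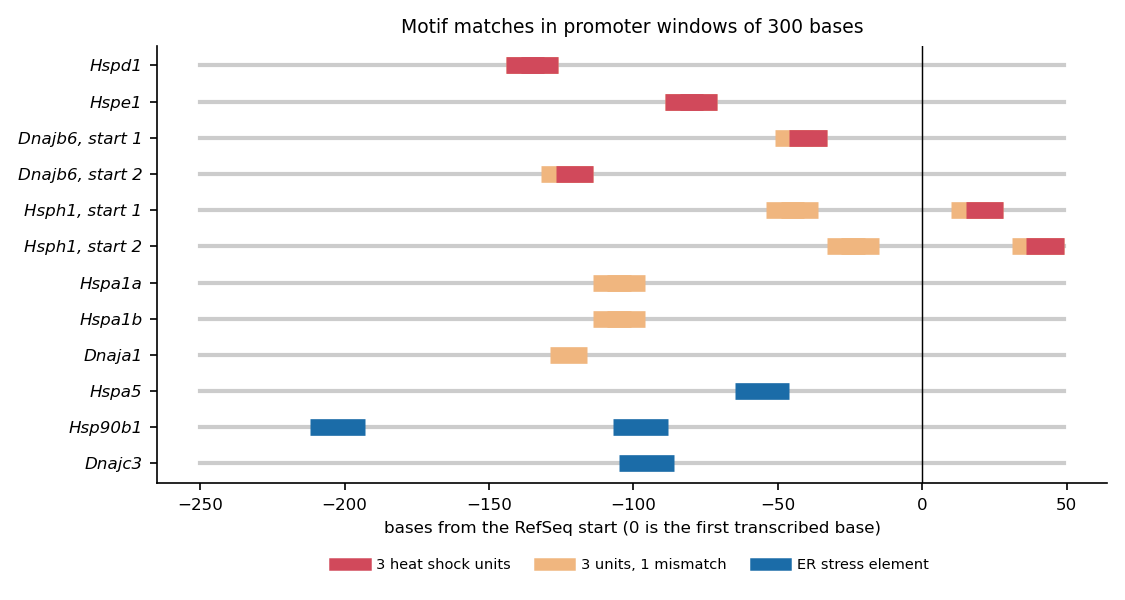
Matches in promoter windows of 12 starts of 10 genes, each a grey line from 250 bases before to 50 bases after the RefSeq start (vertical line at 0). Red marks 3 heat shock units, orange 3 units with 1 mismatch and blue the ER stress element; the matches of Hspa1a and Hspa1b lie at the same positions.

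The heart held most chaperone genes at 1 TPM or more. Of the 79 members, 65 (82.3%) reached 1 TPM in both hearts, against 49.7% of 22015 nuclear protein-coding genes. At least 10 TPM in both hearts was reached by 44 members and at least 100 TPM by 7. No share over all genes was taken at 10 or 100 TPM, so these counts only describe the members. All members summed to 0.884% and 0.889% of nuclear protein-coding TPM in hearts 1 and 2. The 6 most abundant members held 53.1% ± 0.0557 (SD, n = 2) of that sum, and the same 6 held 49.3% ± 0.190 in the second quantification, a separate deposited estimate from the same libraries. By site of the protein, the cytosol took 58.8% ± 0.502, the mitochondrion 21.2% ± 0.699 and the endoplasmic reticulum 15.8% ± 0.251 of member TPM.

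**Figure D2:**
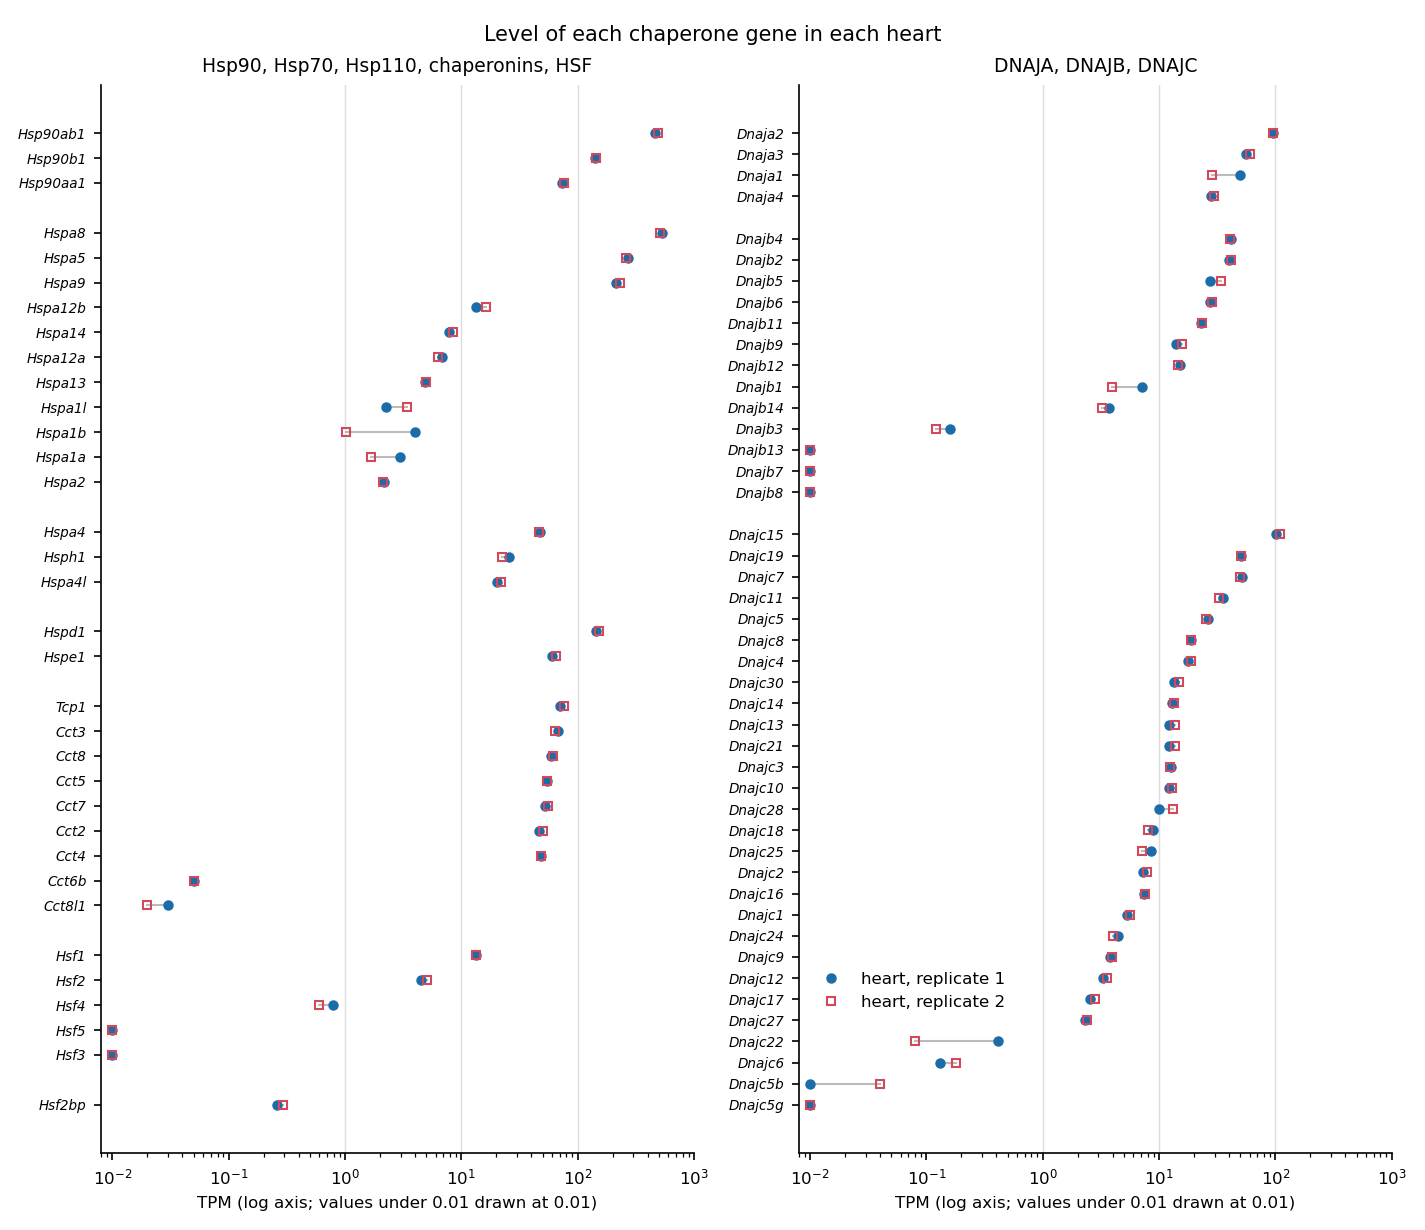
Level of each of the 79 members in TPM on a log axis, with heart 1 as filled circles and heart 2 as open squares, grouped by class. The symbols of 1 gene overlap for most members; Hspa1b, Hspa1a, Dnajb1 and Dnaja1 stand apart with heart 1 to the right, and Hspa1l with heart 2 to the right.

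Hsp70 RNA came mostly from 1 constitutive gene per compartment. Hspa8, the constitutive cytosolic Hsc70, was the most abundant member at 532 and 513 TPM in hearts 1 and 2. It lies at chr9:40800984-40810087 on the plus strand of mm10 and holds 3 Snord14 small RNA genes on its own strand. Hspa5, the BiP of the endoplasmic reticulum, stood at 269 and 260 TPM, and Hspa9, the mortalin of mitochondria, at 216 and 231 TPM. These 3 genes held 95.8% ± 0.0331 of the TPM of 11 Hsp70 genes. Among the 5 cytosolic genes (Hspa8, Hspa1a, Hspa1b, Hspa1l and Hspa2), Hspa8 held 97.9% in heart 1 and 98.4% in heart 2. With the ribosome-associated cytosolic Hspa14 counted as well, it held 96.5% and 96.9%.

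The inducible and divergent Hsp70 genes were low. Hspa1b stood at 4.01 and 1.02 TPM and Hspa1a at 2.96 and 1.68 TPM, and both were lower in heart 2. Hspa1l, known chiefly from testis, stood at 2.24 and 3.40 TPM, the other way round. Hspa2, needed in male meiosis, was near level at 2.18 and 2.12 TPM. Hspa12b, a divergent member known from endothelium, was at 13.3 and 16.3 TPM, above its relative Hspa12a at 6.84 and 6.32 TPM. Hspa14, which sits on ribosomes with the co-chaperone Dnajc2, was at 7.84 and 8.45 TPM, close to Dnajc2 at 7.30 and 7.82 TPM. Hspa13 (Stch) of the endoplasmic reticulum was at 4.90 and 4.98 TPM, with 608 counts in each heart.

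Hsp90 showed the same preference for the constitutive gene. Hsp90ab1, the constitutive cytosolic form (chr17:45567775-45573271, minus strand), stood at 464 and 494 TPM. Hsp90aa1, the inducible cytosolic form, was at 73.8 and 77.0 TPM, so that Hsp90ab1 held 86.4% ± 0.157 of the pair. Hsp90b1, the GRP94 of the endoplasmic reticulum, was at 141 and 143 TPM. The mitochondrial Hsp90, Trap1, is a partner gene outside the symbol rule, at 54.0 TPM in heart 1. Hspa8 and Hsp90ab1 were close in level, with a TPM ratio of 1.15 in heart 1 and 1.04 in heart 2. In the second quantification the ratio was 1.34 and 1.16.

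Exchange factors of the Hsp110 class lay between the 3 abundant Hsp70 genes and the 8 others in level. Hspa4 stood at 47.6 and 46.2 TPM, Hsph1 (Hsp105) at 25.9 and 22.3 TPM, and Hspa4l at 20.3 and 21.8 TPM. TPM of the 5 cytosolic Hsp70 genes, nearly all of it Hspa8, was 5.79 and 5.78 times the sum of these 3. Bag3, an exchange factor and cochaperone of muscle, was higher than any Hsp110 gene at 92.1 TPM in heart 1.

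The TRiC subunits that the rule took were similar in level in the first quantification. The 7 subunits of the cytosolic TRiC barrel that the rule took (Tcp1, Cct2, Cct3, Cct4, Cct5, Cct7 and Cct8) ranged from 48.4 to 73.6 TPM as means over the hearts, a span of 1.52-fold. Tcp1, the alpha subunit, was highest at 70.8 and 76.3 TPM, and Cct4, the delta subunit, lowest on average at 48.0 and 48.9 TPM. The log2 ratios of the 7 between the hearts ran from -0.07 (Cct3) to 0.07 (Tcp1). In the second quantification the span was wider, with means from 49.9 TPM (Cct3) to 99.3 TPM (Tcp1). Cct6a, the zeta subunit outside the rule, was below each of the 7 in the first quantification, at 35.5 and 34.0 TPM. The testis form of the zeta subunit, Cct6b, had 3 counts in each heart, and Cct8l1 had 2 and 1. In mitochondria, Hspd1 (Hsp60) stood at 145 and 153 TPM and Hspe1 (Hsp10) at 59.7 and 65.2 TPM. Although they share a divergent promoter region, Hspd1 RNA was 2.43 and 2.35 times that of Hspe1 by TPM, and 1.84 and 1.85 times in the second quantification. The log2 ratios between the hearts were 0.04 for Hspd1 and 0.09 for Hspe1, each with an overlapping 95% interval of counting error (0.01 to 0.08 and -0.02 to 0.20). The genes overlap on opposite strands (Hspd1 at chr1:55077835-55088243, Hspe1 at chr1:55088132-55091307), and no source used here says whether reads were counted by strand.

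DNAJ co-chaperones numbered 45 genes, and their summed TPM was 0.822 and 0.832 times that of the Hsp70 class. In the second quantification it was 0.952 and 0.997 times. Class A, which delivers unfolded chains, was led by Dnaja2 at 95.8 and 94.7 TPM. Dnaja3 (Tid1), the mitochondrial member, stood at 56.5 and 60.7 TPM and Dnaja4 at 28.1 and 29.7 TPM. Dnaja1 (chr4:40722150-40737149, plus strand) stood at 50.1 TPM in heart 1 and 28.8 TPM in heart 2, the one class A gene that differed.

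Class B held 13 genes, of which 9 reached 1 TPM in both hearts. Dnajb4 led at 41.3 and 41.1 TPM, followed by Dnajb2 at 39.8 and 41.5 TPM. Dnajb5 stood at 27.4 and 34.1 TPM and Dnajb6, an anti-aggregation protein and muscle disease gene, at 27.2 and 28.3 TPM. Dnajb1, the classic inducible Hsp40 (chr8:83608193-83612653, plus strand), was low at 7.12 and 3.95 TPM. In the endoplasmic reticulum, Dnajb11 (ERdj3), a partner of BiP, stood at 23.2 and 23.2 TPM and Dnajb9 (ERdj4) at 14.1 and 15.7 TPM. The membrane-anchored reticulum genes Dnajb12 and Dnajb14 stood at 15.0 and 14.7 TPM and at 3.69 and 3.23 TPM.

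Class C was the largest, with 28 genes of varied task, of which 24 reached 1 TPM in both hearts. The mitochondrial Dnajc15 led at 101 and 109.5 TPM. It was followed by the mitochondrial Dnajc19 at 51.0 and 50.3 TPM and the cytosolic Dnajc7, which binds both Hsp70 and Hsp90, at 51.3 and 49.3 TPM. Other mitochondrial members were Dnajc11 at 35.2 and 32.8 TPM, Dnajc30 at 13.5 and 14.9 TPM and Dnajc28 at 9.96 and 13.2 TPM. Dnajc15 and Dnajc19 belong to the motor of protein import, Dnajc19 being a cardiomyopathy gene, and Dnajc11 helps to shape cristae. Dnajc5, the cysteine string protein of vesicles, was at 26.4 and 25.3 TPM and the endosomal Dnajc13 at 12.1 and 13.8 TPM. Spliceosomal Dnajc8 stood at 18.9 and 18.8 TPM. Other nuclear members were lower: Dnajc21 of ribosome assembly at 12.2 and 13.7 TPM, the histone chaperone Dnajc9 at 3.75 and 3.96 TPM, and Dnajc17 of the spliceosome at 2.56 and 2.79 TPM. Reticulum members Dnajc3 and Dnajc10 (ERdj5) were at 12.7 and 12.5 TPM and at 12.3 and 12.9 TPM. Dnajc1 (ERdj1) stood at 5.32 and 5.67 TPM, and the reticulum membrane members Dnajc14, Dnajc18 and Dnajc16 lay between 7.44 and 13.4 TPM in both hearts. In the cytosol, Dnajc24, which takes part in diphthamide synthesis, was at 4.44 and 4.04 TPM and Dnajc12, a cochaperone of aromatic amino acid hydroxylases, at 3.32 and 3.57 TPM. Dnajc6, the auxilin of neurons, was at 0.13 and 0.18 TPM.

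Among heat shock factors, Hsf1, the main stress-activated factor, was the highest at 13.5 TPM in each heart, with 877 and 857 counts. Hsf2 stood at 4.47 and 5.06 TPM, and Hsf4, a factor of the lens, at 0.78 and 0.60 TPM. Hsf5 had 1 and 0 counts, and Hsf3 had 0 in both.

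In all, 14 members were under 1 TPM in at least 1 heart, and 10 of these belong to the 12 members listed here as known from testis. That list was chosen with earlier results of these data known, so the overlap is not independent of them. Dnajb7, Dnajb8, Dnajc5g and Hsf3 had 0 counts in both hearts, and Dnajb13, Dnajc5b and Hsf5 no more than 1 count in either. Of 4 germ cell markers, Prm1 and Tnp1 were at 0 in both hearts, Ddx4 had 2 and 5 counts and Sycp3 had 3 and 1. The members of the testis list that did reach 1 TPM were Hspa1l and Hspa2, given above.

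Few members differed between the hearts, at a share near that of all genes. Hspa1b had 365 expected counts in heart 1 and 93.6 in heart 2, a log2 ratio of heart 2 over heart 1 of -2.00 (95% exact interval of counting error -2.35 to -1.67). Of the 65 members with a mean count of 50 or more, Hspa1b was the only one 2-fold or more apart by this rule of size, which is 1.54% of them. Over all genes, 161 of 12541 (1.28%) were that far apart, and 1.00% of all genes were so with heart 1 higher, so the members' share is near the background. Dnajb1 had 694 and 386 counts (-0.89, interval -1.07 to -0.71), Hspa1a 285 and 162 (-0.85, -1.15 to -0.58) and Dnaja1 2422 and 1534 (-0.70, -0.80 to -0.61). These 4 were the members 1.5-fold or more apart (6.15%, against 4.27% of all genes), and all 4 were higher in heart 1. Among all genes that far apart, 323 were higher in heart 1 and 212 in heart 2. Hspa1l, next to Hspa1a on chromosome 17, was just short of it in the other direction with 179 and 273 counts (0.56, 0.29 to 0.84).

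**Figure D3:**
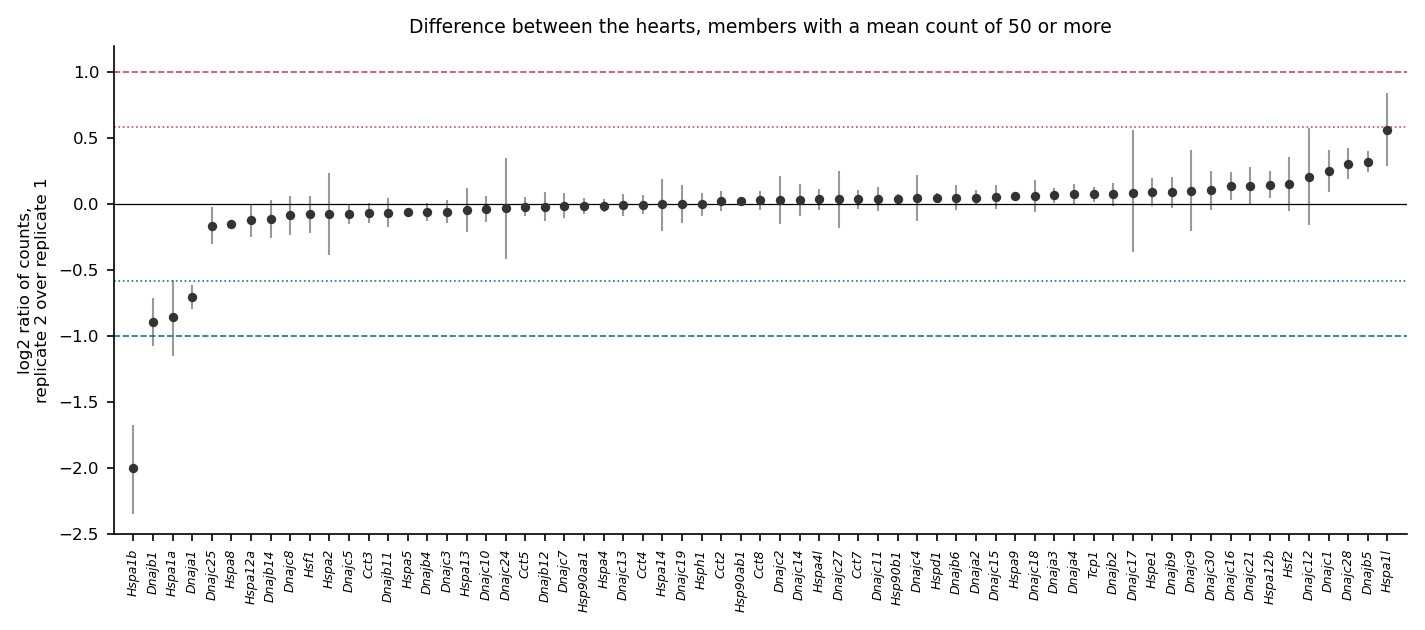
Log2 ratio of TMM-scaled counts, heart 2 over heart 1 (replicates 2 and 1), for the 65 members with a mean count of 50 or more, in order of the ratio. Bars are 95% intervals of counting error, dotted lines mark 1.5-fold and dashed lines 2-fold; Hspa1b at -2.00 is the one member past the dashed line.

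The other members lay close together. Within 1.25-fold were 60 of 65 (92.3%), against 86.0% of all genes, and the median log2 ratio of the 65 was 0.03. The 2 shares are not matched for level, and counting error is wider for genes of low count. Dnajb5 (2121 and 2735 counts) and Dnajc28 (1066 and 1359 counts) came next on the side of heart 2, at 0.32 and 0.31. Their intervals were 0.24 to 0.40 and 0.19 to 0.42. Hspa8, with 36319 and 33830 counts, had a ratio of -0.15 (-0.17 to -0.13), small but outside its counting error. Dnajc22, with 20 and 4 counts, lies under the count bound and is not counted among genes apart.

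The list of 13 stress-inducible genes, all of them members, holds the 4 genes that were 1.5-fold higher in heart 1. Over all genes, 4.27% were 1.5-fold or more apart in either direction. Of 12541 genes, 323 were that much higher in heart 1 and 212 in heart 2. Lists were chosen with earlier results of these data known, so this overlap is not independent of them. The list also holds Hspa8 and Hsp90ab1, called constitutive above, so its range and median are not those of inducible genes alone. The other genes of that list ranged from -0.15 (Hspa8) to 0.09 (Hspe1), and the list's median was -0.01, against 0.00 over all genes. Among them Hsph1 was at 0.00 with 2084 and 2148 counts, Hsp90aa1 at -0.01 with 4505 and 4609 counts, and Dnajb4 at -0.06 with 3307 and 3272 counts. Promoter windows were found for 10 genes of the list. Hspd1, Hspe1 and Hsph1, whose windows hold 3 perfect heat shock units, lay between 0.00 and 0.09. With 1 mismatch allowed 8 hold the element, Hspa1a, Hspa1b and Dnaja1 among them. Hsf1 RNA was at -0.08 (-0.22 to 0.06). Activity of heat shock factors was not measured, and their part in these differences was not tested. Hspa1b, Dnajb1, Hspa1a and Dnaja1 were higher in heart 1 at 1.5-fold or more, and of these only Hspa1b at 2-fold or more. At 2-fold or more, 6 of 17 measured immediate early genes, 5 of 6 adipocyte markers and 6 of 6 erythroid markers were also higher in heart 1. For immediate early genes the median was -0.49, with Nr4a1 at 1336 and 157 counts, Fos at 180 and 50, and Egr1 at 210 and 255. The part of these lists in the difference of Hspa1a, Hspa1b, Dnajb1 and Dnaja1 was not tested.

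**Figure D4:**
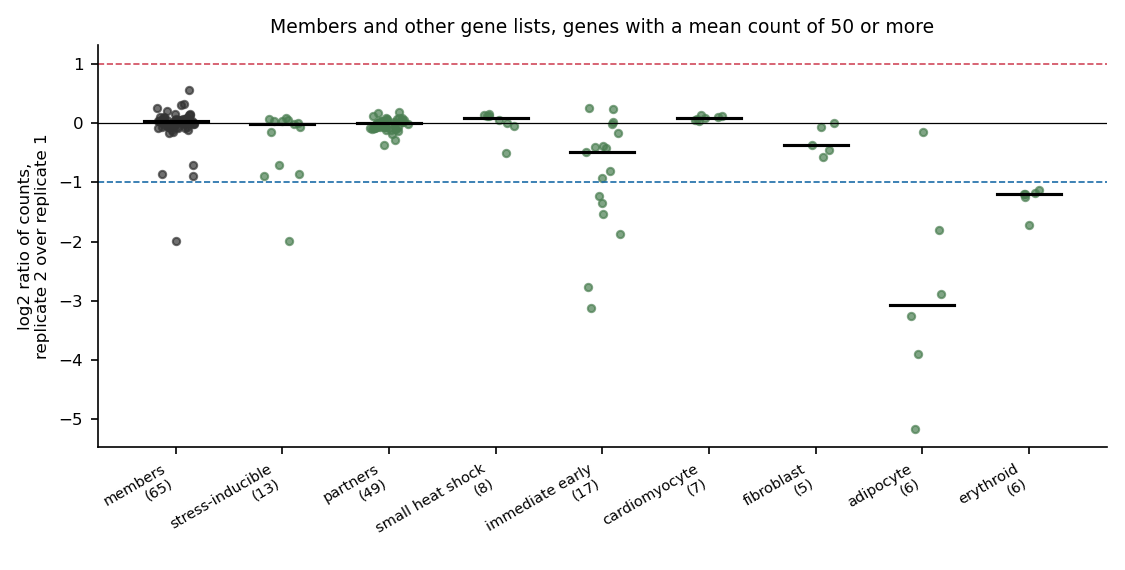
Log2 ratio of counts, heart 2 over heart 1, of single genes (points) with the median of each list (bar) and the number of genes with a mean count of 50 or more below each name. The members and partners gather at 0, with Hspa1b at -2.00, while the erythroid list lies below -1 and adipocyte genes reach -5.17.

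Hspa1a and Hspa1b are near-identical, so the split of reads between them is uncertain. Both have 1 exon and lie on chromosome 17 (Hspa1b at chr17:34956436-34959238, Hspa1a at chr17:34969190-34972156, minus strand). In the reference, their coding sequences of 1923 and 1926 bases are 99.4% identical, with 8 mismatches and a longest identical run of 638 bases. Whether CAST alleles differ at these bases, and what that does to the split of reads, was not tested. Of the 100-base windows of the Hspa1b transcript, 49.9% also occur in Hspa1a. The stretch below shows 60 coding bases of each, from coding base 1357 to 1416 in the aligned frame, with the 2 differing bases in capitals (Hspa1a at chr17:34970510-34970569, Hspa1b at chr17:34957592-34957651).
Hspa1a: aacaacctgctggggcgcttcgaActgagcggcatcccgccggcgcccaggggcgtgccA
Hspa1b: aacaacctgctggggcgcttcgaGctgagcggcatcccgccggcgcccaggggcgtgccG

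The deposited standard deviation of the count from read assignment was 4.05% of the Hspa1b count in heart 1 and 10.7% in heart 2, and 5.21% and 6.25% for Hspa1a. For 43 of the 65 measured members it was 0 in both hearts. Hspa1b held 57.5% of the pair's TPM in heart 1 and 37.8% in heart 2. Summed over the pair, which does not depend on the split, the counts were 650 and 256, a log2 ratio of -1.39 (-1.60 to -1.18), and -1.39 again in the second quantification. Other members also share transcript sequence with other genes, whose types were not tallied. For Hsp90aa1 38.0% of the windows occur in another gene, for Hspa8 28.2% and for Hspd1 23.4%. Hspa1l shares 5.65% of its windows with Hspa1a or Hspa1b. In 55 of 79 members no window is shared.

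No partner gene of the same machinery passed 1.5-fold between the hearts. Of 50 listed partners (exchange factors, Hsp90 cochaperones, prefoldins, reticulum chaperones and others), 49 reached 1 TPM in both hearts and 0 of 49 with a mean count of 50 or more were 2-fold apart. The same count was 0 at 1.5-fold. Over all genes the shares were 1.28% and 4.27%, so a count of 0 in a list of this size is near the background, as it is for the shorter lists below. The ratios of the partners ran from -0.37 (Hspbap1) to 0.19 (Pdcd5). The Hsp90 cochaperone Fkbp4 had 9499 and 9848 counts, and the myosin chaperones Unc45b and Smyd1 had 6849 and 7971 and 13811 and 15067. Small heat shock genes, which hold unfolded chains without ATP, summed to 1941 and 2159 TPM over 9 genes, with Cryab at 949.7 TPM in heart 1. Genes of ER stress numbered 18, all above 1 TPM, and 0 were 2-fold apart, with a median of -0.04 and a range of -0.20 (Xbp1) to 0.36 (Ddit3). Of 16 genes of mitochondrial proteostasis, 0 were 2-fold apart and the median was 0.05.

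Several members had much of their RNA in transcripts that are not typed protein-coding. Dnajc15 stood out: 97.4% ± 0.141 of its TPM fell on other types, namely 64.6 and 69.2 TPM on Dnajc15-203, a processed transcript of 419 bases, and 33.6 and 37.6 TPM on Dnajc15-201, typed for nonsense-mediated decay. Its protein-coding transcript Dnajc15-202, of 6193 bases, held 2.68 and 2.69 TPM. The second quantification gave 99.1% for the same share. Cct7 had 53.0% ± 0.903 on other types, most of it on Cct7-202, typed for nonsense-mediated decay, at 27.6 and 28.9 TPM. Dnaja2 has 2 transcripts, and the other type held 50.2% and 45.1% in hearts 1 and 2.

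In other genes the share depended on the quantification. Dnajc19 had 53.0% in the first and 0% in the second, the first placing 28.1 and 25.6 TPM on the retained intron Dnajc19-205 of 419 bases. Cct3 had 40.7% and 1.39%, with 27.4 TPM in heart 1 on the retained intron Cct3-203 in the first and 0 in the second. Hsp90aa1 had 30.2% and 0.327%. Hspa4 went the other way, with 17.0% and 42.8%. Of 53 members at 5 TPM or more, 11 (20.8%) had over 25% of TPM on other types in the first quantification. Among nuclear protein-coding genes at that level the share was 23.1%. In both quantifications 8 members did, and no share over all genes was taken for that count. The transcript types are those of the annotation, and transcripts of short length weigh more in TPM than in counts.

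**Figure D5:**
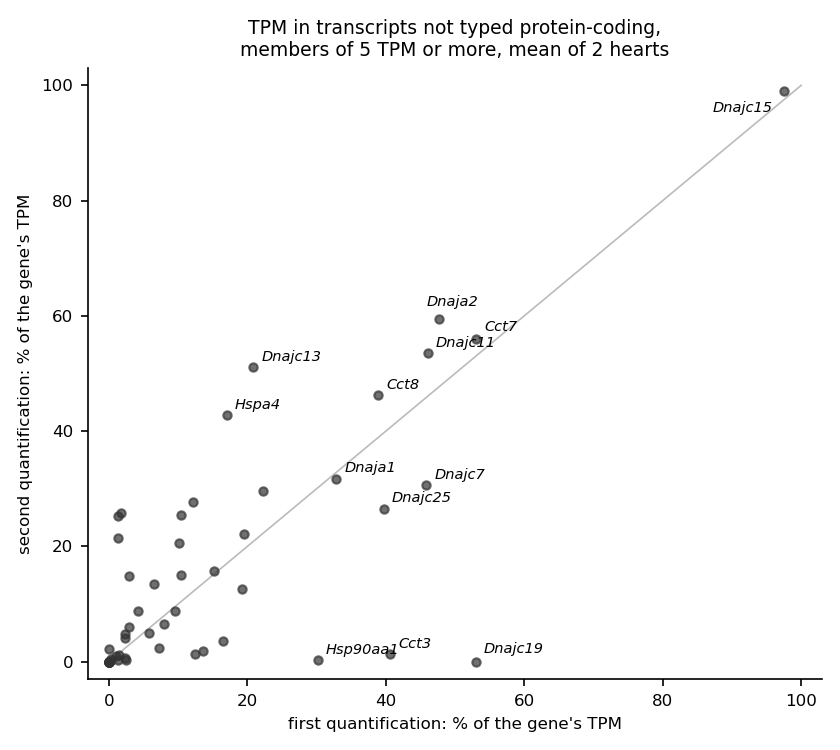
Percent of each gene's TPM in transcripts not typed protein-coding, first against second quantification, for the 53 members at 5 TPM or more (mean of 2 hearts, line of equality in grey). Dnajc15 lies near 100% on both axes, while Dnajc19, Cct3 and Hsp90aa1 lie at the bottom, with a share in the first quantification only.

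The transcript that led a gene was mostly the same in both hearts. Of 51 members at 5 TPM or more with several transcripts, 48 (94.1%) had the same leading transcript, against 91.7% of all such genes. At 20 TPM or more the order turned, with 90.6% of 32 members against 94.3% of all such genes. The exceptions were Cct8, Dnaja2 and Dnaja1. For Dnaja1, heart 1 was led by Dnaja1-206, a processed transcript, at 17.0 against 6.44 TPM in heart 2, and heart 2 by the coding Dnaja1-205 at 12.1 against 16.7 TPM. The coding Dnaja1-201 stood at 13.4 and 8.83 TPM, so each of these 3 transcripts was higher in heart 1. In the second quantification Dnaja1-206 was at 0 in both hearts and Dnaja1-205 at 26.8 and 15.6 TPM, again higher in heart 1. Hspa8 showed how the 2 methods divide similar transcripts: Hspa8-202 held 148 and 150 TPM in the first and 1.63 and 1.66 TPM in the second, while Hspa8-201 led in both.

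Gene totals lay closer between the quantifications than some of these transcripts did. Of 56 members at 5 TPM or more in either, 0 were 4-fold apart, against 67 of 8019 nuclear protein-coding genes (0.836%). In a list of this size a count of 0 is near that background. At 2-fold the count of members was also 0, and no share over all genes was taken there. The median of second over first TPM was 1.26 for members and 1.18 for those genes. Dnajc15 had the largest ratio of the 56 at 1.97, with 198 and 217 TPM in the second. Cct3 had the lowest at 0.757, with 50.9 and 48.9 TPM.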

How the data were processed

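Total RNA-seq of 2 hearts was read from the files the authors deposited. A first quantification on mm10 with GENCODE M21, as the authors deposited it, gives expected counts, TPM and FPKM for genes and transcripts, and each transcript's percent of its gene's TPM. FPKM was read and not used in a result. A second quantification by the authors gives estimated counts and TPM of transcripts, which were summed to genes. The sources used here name no program. Read and fragment lengths enter TPM through effective length, which in the first files is the transcript length minus 99 bases.

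The log2 ratio of heart 2 (replicate 2) over heart 1 (replicate 1) used expected counts scaled by TMM (edgeR 4.0.16, R 4.3.3) without spike-ins and tRNA entries, with a prior count of 1. Its 95% interval is exact (Clopper-Pearson, scipy 1.17.1) and covers counting error only, since without molecular identifiers reads need not be independent molecules. Genes were said to be apart at 2-fold or more with a mean count of 50 or more, a rule of size and not a test, checked on simulated data. Named were the leading members of each class, members apart between hearts or quantifications, members at or near 0 and genes of fixed lists; Dnajb5, Dnajc28, Dnajc22, Hspa12a and the transcripts were chosen after their values were seen. Members and lists were chosen with earlier results of these data known. Alternatives covered thresholds, DESeq2 1.42.0 size factors, library totals, spike-in totals, units, the second quantification and each heart alone. Coding sequences were aligned globally with Biopython 1.88.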

Additional observations from a re-analysis of the deposited data

How the results depend on the processing

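No paired analysis was possible because the labels give a single group. Under another count bound, scaling or quantification the call of Hspa1b as the member 2-fold apart was kept. The number of members apart was 1 in the first place, 2 with a mean count of 10 (Dnajc22 added) and 4 at 1.5-fold, and it was 1 at 3-fold and with Hspa1a and Hspa1b summed, an alternative chosen after seeing the data. For partner genes it was 0 under each of 8 alternatives. Members detected ranged from 52 at 5 TPM to 66 at 0.5 TPM, and were 65 from either heart alone. The member share of nuclear protein-coding TPM (0.887%) was 0.857% in the second quantification and 0.960% by expected counts, and 0.884% to 0.889% from single hearts. The Hspa8 share of cytosolic Hsp70 was 97.6% by counts, 96.7% with Hspa14 included, an alternative chosen after seeing the data, and 97.9% to 98.4% from single hearts. The Hsp90ab1 share was 84.8% in the second quantification and 88.5% by counts (86.3% to 86.5% from single hearts). The Hspd1 share of Hspd1 and Hspe1 was 70.5%, 64.9% in the second quantification and 88.9% by counts, which do not correct for length (70.1% to 70.8% from single hearts). With 20 TPM or more, 29 of 32 members (90.6%) shared the leading transcript, against 94.3% of all genes, the reverse of the order at 5 TPM (94.1% and 91.7%). Promoters holding a heat shock element numbered 4 with 3 units, 16 with 2 units (15.1% of all windows hold these) and 14 with 1 mismatch. Of 260 log2 ratios of single members under another scaling or quantification, 243 stayed within the counting interval or kept the call, and 15 of the other 17 came from spike-in scaling, which moved the median of all genes to 0.07 and put Hspa1l past 1.5-fold.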
